A study of Mus musculus with 18 samples.

Results

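The genes described are the heat shock proteins and chaperones of the mouse: protein-coding genes of GENCODE vM21 whose symbols name a heat shock protein (Hspa, Hspb, Hspd, Hspe, Hsph, Hsp90), a J protein (Dnaja, Dnajb, Dnajc), a BAG protein, a subunit of the cytosolic chaperonin (Cct2 to Cct8) or a heat shock transcription factor (Hsf1 to Hsf4). The annotation holds 92 such genes, of which 91 were found by identifier among the 47643 genes of the count tables. Hspa14, on chromosome 2, was not analysed here. The symbols also bring in a few genes that are not chaperones, such as Hspb11, a ciliary transport subunit, and the annotation classes Cct6a as a processed transcript, so that this chaperonin subunit was kept with the pathway genes below. Of the 91 genes, 76 passed a filter on low levels (over 1 CPM, a count scaled to library size, in 3 or more of 18 libraries) and were tested. The other 15 were at or near the limit of detection: Hsf3, Hspb3 and Dnajc5g had 0 counts in all libraries, which allows a level of up to 0.13 to 0.316 CPM (3 counts of a library's total, counting error only).

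RNA was sequenced from eDRG spot cultures, in which dorsal root ganglion cells of CD-1 mouse embryos at e13.5 are plated as a spot and extend axons outward. All cultures grew with FDU, a mitotic inhibitor, to DIV7. The 3 control cultures were collected uninjured at DIV7, and 3 cultures each were collected 1, 3, 8, 16 and 24 h after axotomy with a blade (hours post injury, HPI), 18 libraries in 6 groups. No uninjured culture of a later hour was among them, so hours in culture and hours post injury cannot be told apart. The purpose was to follow the transcription of DRG neurons after axon injury. Libraries held 9478891 to 23082327 counts on genes. Of the sensory neuron markers, Prph had 3715 to 4280 CPM and Avil 562.1 to 879.4 CPM over the libraries, while the 8 markers of satellite glia and Schwann cells summed to 1.55 to 12.7 CPM. Replicate 1 of 16 HPI stood apart from the other libraries, with 2.45% of its counts on residual rRNA genes against 0.91% to 1.58% elsewhere.

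Chaperones hold unfolded or newly made proteins and help them reach their native fold. HSP70 proteins bind short exposed stretches under control of ATP, J proteins deliver the substrate and drive ATP hydrolysis, BAG and HSP110 proteins release the nucleotide, HSP90 matures kinases and receptors, small heat shock proteins hold aggregating proteins, and the chaperonin folds actin and tubulin in a closed chamber. In the cytosol the genes are induced by the heat shock factors through heat shock elements in promoters. In the endoplasmic reticulum (ER) a separate set, led by Hspa5, is induced by the unfolded protein response through the ER stress element, with Eif2ak3, Ern1 and Atf6 as the sensors. A cut axon makes large demands on protein synthesis in the cell body, and small heat shock proteins are known to accompany axon growth in sensory neurons.

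The promoter windows of RefSeq on GRCm38.p6 (250 bases before the start and 50 after it, in 32851 windows of all genes) were searched on both strands for the elements that these 2 responses use, and the matches that bear on the results below are shown. The ER stress element, CCAAT and CCACG with 9 bases between them, stood in 0.119% of all windows and in 3 of the 93 windows of chaperone genes. The heat shock element of 3 units, GAA in turn on either strand with 2 bases between units, stood in 0.603% of all windows and in 6 of 93, those of Hspd1, Hspe1, Hsph1 and Dnajb6. The element of 2 units (GAANNTTC or TTCNNGAA) was common, in 15.1% of all windows and 22 of 93. The 3-unit matches also hold it. The cyclic AMP response element TGACGTCA stood in 1.79% of all windows and in 1 of 93, that of Dnajc27. The sites of Hspa5, Hspe1, Hsph1 and Dnajb6 also lie in exons of some vM21 transcript, while those of Dnajc3 and Hsp90b1 lie before all annotated exons. Each sequence is written 5′ to 3′ on the strand of its gene, with the matched letters in capitals. The first 2 sites are those of Hspa5, the most abundant HSP70 of the ER, at chr2:34772020-34772049 (+), and of Dnajc3, an ER J protein, at chr14:118937822-118937851 (+):
Hspa5: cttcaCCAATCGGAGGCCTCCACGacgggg
Dnajc3: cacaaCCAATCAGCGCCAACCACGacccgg
The stretch before the start of Hsp90b1, the HSP90 of the ER, held the element in both orientations, at chr10:86705510-86705694 (−):
Hsp90b1: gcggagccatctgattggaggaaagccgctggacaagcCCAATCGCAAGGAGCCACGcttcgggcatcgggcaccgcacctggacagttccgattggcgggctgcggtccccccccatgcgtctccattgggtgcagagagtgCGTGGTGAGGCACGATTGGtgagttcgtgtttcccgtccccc
The 3-unit heat shock elements lay at chr1:55088056-55088085 (+) in the promoter that Hspe1 shares with Hspd1 (where a second match overlaps the one in capitals), at chr5:149636279-149636308 (−) in Hsph1, and at chr5:29735844-29735873 (+) in Dnajb6:
Hspe1: ccgttctaGAACCTTCCGGAAggccccgcg
Hsph1: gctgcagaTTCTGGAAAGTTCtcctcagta
Dnajb6: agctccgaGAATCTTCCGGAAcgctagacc
The 250 bases before Hspb1, at chr5:135887669-135887918 (+), held matches of 2 units only:
Hspb1: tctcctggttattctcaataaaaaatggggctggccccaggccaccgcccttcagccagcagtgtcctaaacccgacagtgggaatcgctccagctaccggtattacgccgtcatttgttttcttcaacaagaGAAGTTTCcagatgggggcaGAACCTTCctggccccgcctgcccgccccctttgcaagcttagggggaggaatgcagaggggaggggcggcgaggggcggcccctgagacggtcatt
The window of Dnajb9, an ER J protein, held none of these elements. A match describes letters only, not a bound factor.

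The chaperone genes took 1.18% to 1.32% of the counts on genes in the 18 libraries. Compared per exon length (RPKM in control, mean ± SD, n = 3), Hsp90ab1, the constitutive cytosolic HSP90, led with 858 ± 34.9. Hsp90aa1, its inducible partner, had 304 ± 30.4, and Hspa8, the constitutive cytosolic HSP70, had 304 ± 22.4. The levels of Hsp90aa1 and Hspa8 did not differ beyond their spread. Mitochondrial Hspd1 with 134 ± 6.4, the chaperonin subunit Cct5 with 128.5 ± 6.7 and mitochondrial Hspa9 with 127 ± 13.1 followed, within each other's spread. The subunits Cct2 (99.3 ± 5.0) and Cct8 (87.8 ± 4.1) came before Hspa5, which had 82.0 ± 6.06. At the other end stood the genes best known for heat induction: Hspa1b had 2.14 ± 0.847 RPKM, and Hspa1a was too low to test, with 2 to 22 counts per library. Of the factors, Hsf1 had 1.95 ± 0.188 and Hsf2 3.41 ± 0.166 RPKM. Several levels are understated by an unknown amount, because reads with several alignments were counted on no gene. Of the read-length stretches of Hspa1b 49.7% occur in Hspa1a, and of those of Hspb1 43.9% occur in the pseudogene Hsp25-ps1. In other annotated genes occur 28.4% of those of Hspa8, 37.8% of those of Hsp90aa1 and 23.6% of those of Hspd1.

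**Figure D1:**
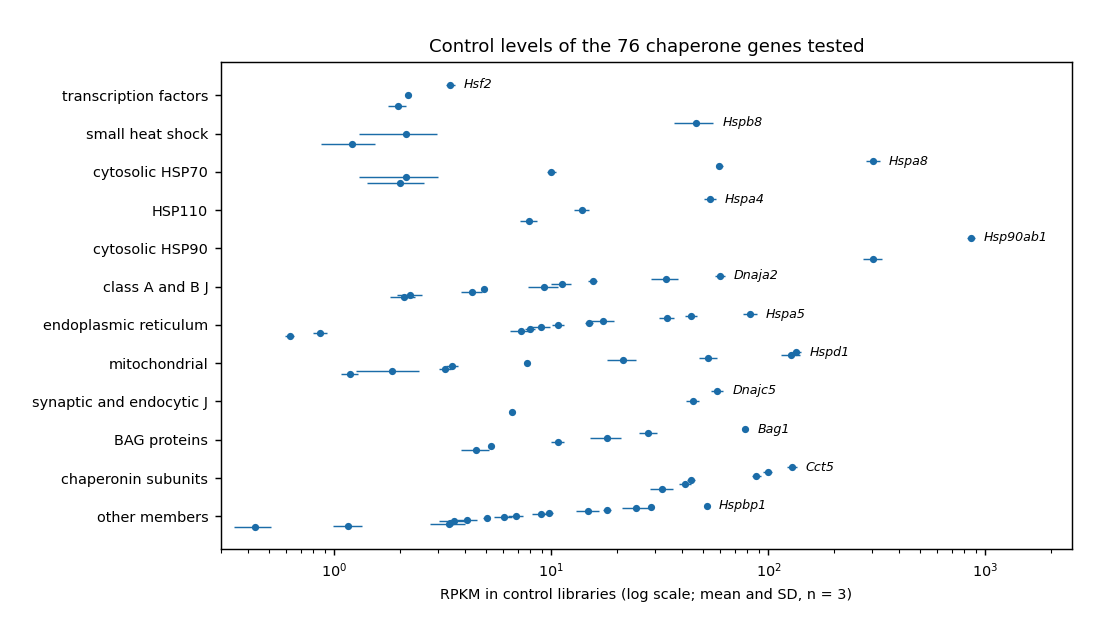
Level of each of the 76 tested chaperone genes in the control libraries, by class, as RPKM on a log axis (points are means and bars SD over 3 libraries; the highest gene of each class is named). Hsp90ab1 stands highest at 858 RPKM, and the heat shock factors lie below 4.

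After axotomy the chaperone genes as a group kept their level, and a minority of them changed by small amounts. No chaperone gene passed the test (edgeR's quasi-likelihood test, adjusted p under 0.05) at 1 or 3 HPI, when 0.276% and 0.189% of the 13771 genes tested did. At an unadjusted p under 0.05 there were 9 and 13 of the 76, beside 1768 and 1999 of the 13771 genes. DESeq2 called 1 at 1 HPI, Bag3 (lower), and 2 at 3 HPI, Dnajc2 and Hspd1 (higher). The DESeq2 counts stand without the share of all genes that DESeq2 called. At 8 HPI 6 of 76 were called, all higher, where 3.78% of all genes were called higher and 3.9% lower. Of the 17 called at 16 HPI, 10 rose (10.7% of all genes did) and 7 fell (11.5%). Of the 11 called at 24 HPI, 6 rose (5.99%) and 5 fell (9.03%), and 1, Hspb1, rose over 2-fold (0.639%). Over the whole time course 21 of 76 were called, 27.6% against 30% of all genes, close to the background. The median log2 fold change of the 76 genes was between 0.00 and 0.04 at every time point. A change of 0.5 or more in log2 at some time point, called or not, was seen in 4 of the 76 members, against 2134 of the 13771 genes. The genes compared were not matched for level. The members' summed level was 12680 ± 508 CPM in control and 12480 ± 583 CPM at 16 HPI (SD, n = 3). The counts of calls rest on the replicate number as a block in the fit. The altered counts that follow stand without the share of all genes called in the same fit, so they do not single out chaperone genes. With no replicate block 1 was called at 8 HPI (Hspa5), 2 at 16 HPI (Hspa5, Dnajb9) and 0 at 24 HPI. Single libraries also weighed on them: without 8 HPI replicate 3, 2 were called at 8 HPI, without control replicate 2 the calls numbered 3, 11 and 6 at 8, 16 and 24 HPI, without 8 HPI replicate 1 it was 3 at 8 HPI, without 24 HPI replicate 3 it was 7 at 24 HPI, and without 16 HPI replicate 1, the library that stood apart, it was 12 at 16 HPI.

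**Figure D2:**
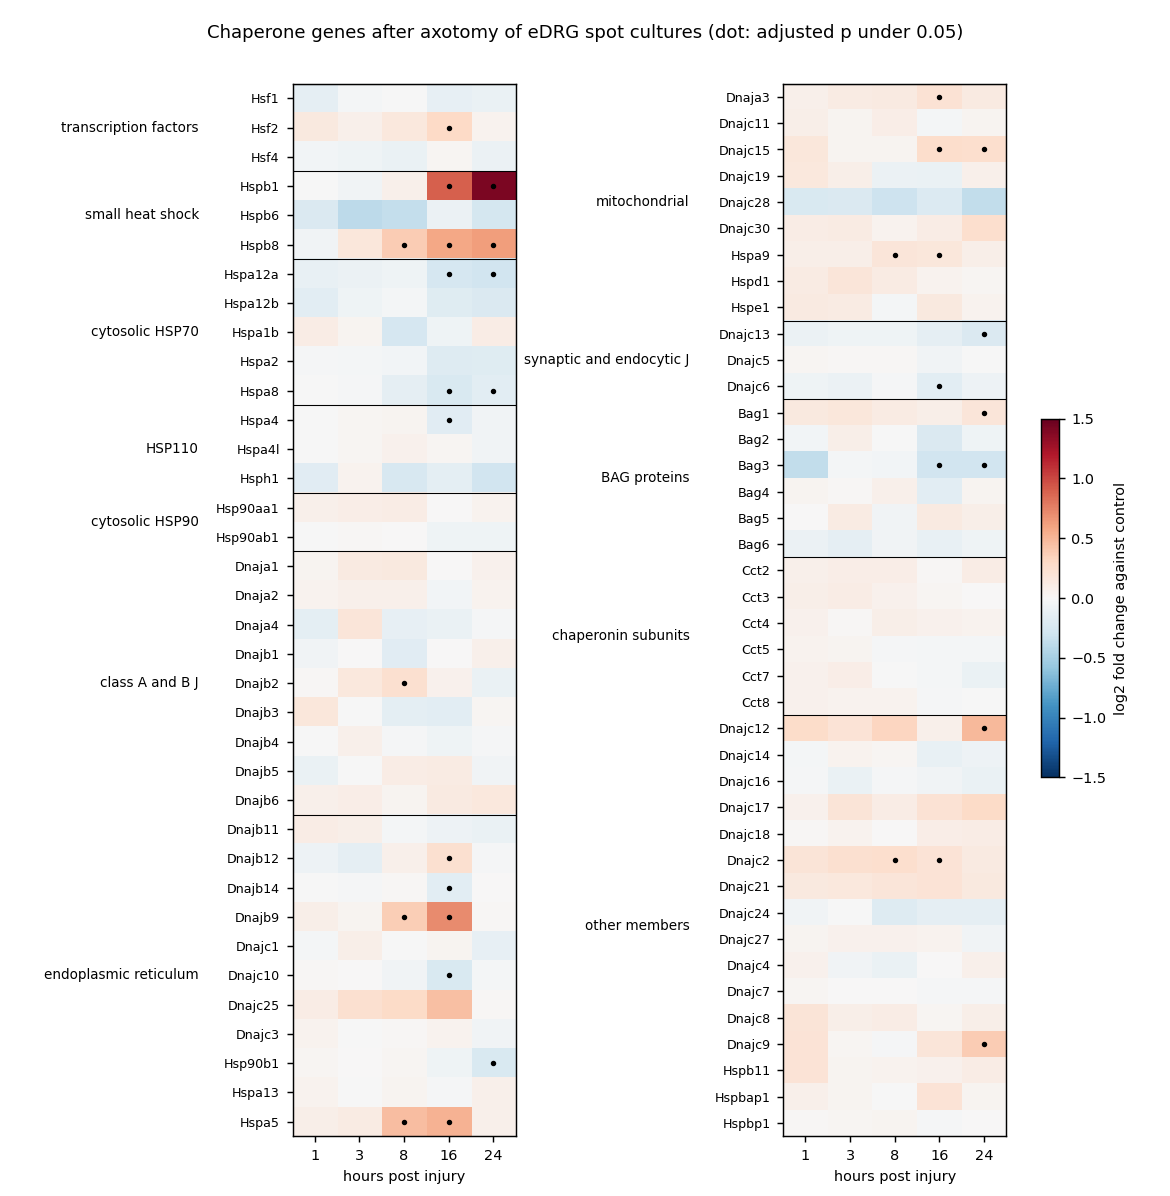
Log2 fold change against control of the 76 tested chaperone genes (rows, by class) at 1, 3, 8, 16 and 24 HPI (columns), red higher and blue lower, with a dot where the adjusted p was under 0.05. Dots begin at 8 HPI and the strongest colours are those of Hspb1, Hspb8, Dnajb9 and Hspa5.

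Among the chaperones of the ER, Hspa5 and Dnajb9 rose at 8 and 16 HPI and were back near control by 24 HPI, while Hsp90b1 was lower at 24 HPI. Of the 11 genes of this class 7 were called over the time course, 63.6% beside 30% of all genes. At 8 HPI 2 of 11 were called, both higher, beside 7.68% of all genes called in either direction. At 16 HPI 5 were called, 3 of them higher and 2 lower, beside 22.2%, and at 24 HPI it was 1, lower, beside 15%.

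Hspa5 (BiP; chr2:34771970-34777547, +) binds nascent proteins in the ER and holds the stress sensors inactive. Its levels were 317.5, 364.6 and 358.5 CPM in the control libraries of replicates 1, 2 and 3. At 8 HPI they were 481.9, 497.6 and 454.8 CPM, at 16 HPI 512.8, 502.4 and 471.9 CPM, and at 24 HPI 339.2, 401.5 and 353.1 CPM. Every library of 8 and 16 HPI was above every control library, and those of 24 HPI overlapped control. The log2 fold change was 0.465 at 8 HPI (SE 0.057, adjusted p = 2.36e-05) and 0.52 at 16 HPI (SE 0.057, adjusted p = 1.86e-06), higher in all 3 replicate numbers. From 16 to 24 HPI the level fell by 0.45 on the log2 scale (SE 0.057, adjusted p = 3.53e-05), and at 24 HPI its difference from control was 0.07, with a 95% interval that includes 0. These 3 calls held in all 26 alternative fits.

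Dnajb9 (ERdj4; chr12:44205559-44210326, −) is a J protein that presents substrates to Hspa5. It had 20.2, 24.6 and 23.7 CPM in control, 29.9, 27.0 and 30.3 CPM at 8 HPI, 38.3, 37.2 and 36.2 CPM at 16 HPI and 23.5, 23.9 and 21.8 CPM at 24 HPI. The 3 libraries of 16 HPI were the 3 highest of the 18. Its log2 fold change was 0.37 at 8 HPI (adjusted p = 0.00679) and 0.71 at 16 HPI (SE 0.077, adjusted p = 1.65e-06), and from 16 to 24 HPI it fell by 0.69 (adjusted p = 7.85e-06). Its change from 8 to 16 HPI, 0.34, was itself called (adjusted p = 0.00437). The call at 8 HPI was lost without control replicate 1, 8 HPI replicate 1 or 8 HPI replicate 3, with Dnajb9 at an adjusted p of up to 0.118 over the alternatives, while those at 16 HPI and from 16 to 24 HPI held in all 26.

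The other members of the class went their own ways. Hsp90b1 (GRP94), the HSP90 paralogue of the ER, had 145.6, 141.6 and 124.1 CPM in control and 126.8, 120.2 and 104.9 CPM at 24 HPI. Within each replicate number the later library was lower, although the groups overlap, and the log2 fold change was -0.23 (adjusted p = 0.00265). Dnajc10, a J protein with disulphide reductase domains, was lower at 16 HPI by -0.22 (adjusted p = 0.00246), as was Dnajb14 by -0.16 (adjusted p = 0.02), and Dnajb12, which sits in the ER membrane and works in degradation, was higher by 0.235 (adjusted p = 0.00947). These 3 were chosen after their values were seen, and all 3 moved back by 24 HPI, with called changes of 0.20, 0.16 and -0.25 in log2 from 16 HPI, all lost without 16 HPI replicate 1 or 24 HPI replicate 3. The calls of Dnajb14 and Dnajb12 at 16 HPI were also lost without 16 HPI replicate 1 or control replicate 1. Dnajc3 (p58IPK), which carries the ER stress element, was not called at any time point, with log2 fold changes of 0.02 at 8 HPI (95% interval -0.10 to 0.15) and 0.05 at 16 HPI (-0.08 to 0.17), intervals that leave out a change of the size of that of Hspa5. Dnajb11, another J protein of Hspa5, was called over the time course (adjusted p = 0.0283) and at no single time point against control. The 3 genes with the ER stress element in the window took 3 courses: Hspa5 rose, Hsp90b1 was lower late, and Dnajc3 was not called.

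**Figure D3:**
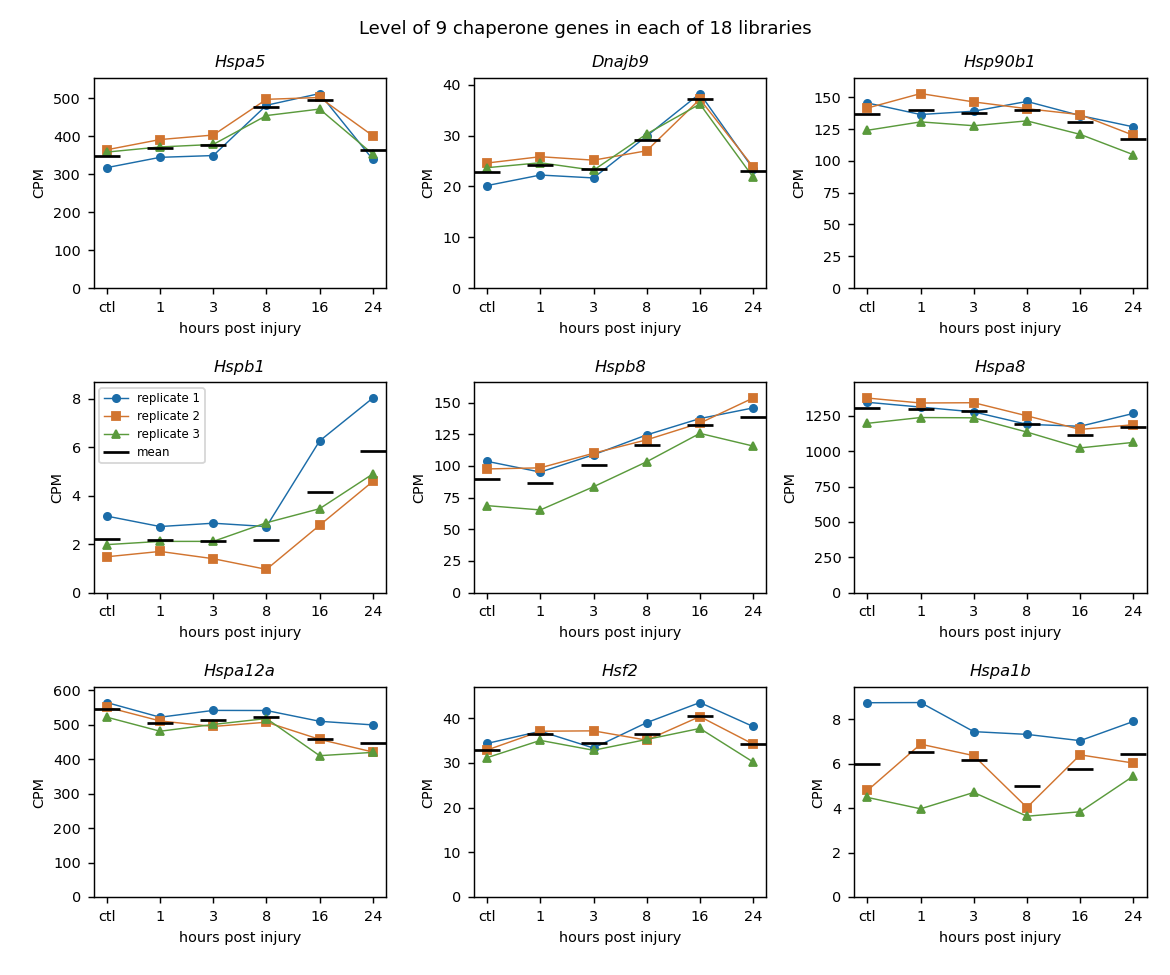
Level in CPM of 9 chaperone genes in each library (y axis from 0) in control and at 1 to 24 HPI (x axis), lines joining libraries of the same replicate number and bars marking group means. Hspa5 and Dnajb9 peak at 8 to 16 HPI and return, Hspb1 climbs to 24 HPI, Hspb8 stands higher from 8 HPI on, and Hspa1b shows no common direction.

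Of the small heat shock proteins 3 of 7 were tested. Hspb1 and Hspb8 were called higher at 16 and 24 HPI, Hspb8 also at 8 HPI, and Hspb6 was not called. The other 4 members of this class, Hspb2, Hspb3, Hspb7 and Hspb9, were too low to test.

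Hspb1 (HSP27, HSP25 in the mouse; chr5:135887919-135889563, +), which binds actin and intermediate filaments and supports survival of injured sensory neurons, was low in these cultures. It had 3.15, 1.47 and 1.98 CPM in control, 2.72, 0.954 and 2.88 CPM at 8 HPI, 6.25, 2.77 and 3.46 CPM at 16 HPI and 8.02, 4.58 and 4.89 CPM at 24 HPI, from 9 to 131 counts in a library. All 3 libraries of 24 HPI lay above all controls, and those of 16 HPI overlapped them. The log2 fold change was 0.90 at 16 HPI (SE 0.189, adjusted p = 0.00146) and 1.41 at 24 HPI (95% interval 1.02 to 1.80, adjusted p = 1.86e-05). With no replicate block it was 1.38 at 24 HPI with an adjusted p of 0.116 for Hspb1.

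Markers of other cells stood at levels like that of Hspb1. Markers of fibroblasts summed to 1.70 to 5.88 CPM over the control libraries, 2.07 to 14.1 CPM at 8 HPI and 3.13 to 9.14 CPM at 24 HPI. Dcn was called higher at 16 HPI and at 24 HPI, with log2 fold changes of 2.07 and 2.22. Col1a1 and Col3a1 were called at neither. Markers of myeloid cells summed to 3.37 to 4.88 CPM in control and 5.21 to 6.82 CPM at 24 HPI, where Cd68 was called higher by 0.93. It was called at 16 HPI too, by 0.965, while Aif1 was called at neither. The 3 endothelial markers never summed to more than 1.32 CPM. Of the 8 glial markers 3 passed the filter and 0 were called, and the sum of the 8 at 24 HPI ranged from 2.01 to 12.7 CPM. The part of these cells in the rise of Hspb1 was not tested. In bulk RNA, fewer cells of a type and less RNA per cell cannot be told apart.

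Hspb8 (HSP22; chr5:116408491-116422864, −), which works with Bag3 to send misfolded proteins to autophagy, was more abundant and was called higher from 8 HPI on. Its changes from 8 to 16 HPI and from 16 to 24 HPI were not called. It had 103.6, 97.6 and 68.6 CPM in control, 124.5, 120.6 and 103.3 CPM at 8 HPI, 137.4, 133.8 and 125.7 CPM at 16 HPI and 145.8, 153.6 and 115.7 CPM at 24 HPI. The libraries of 16 and 24 HPI were all above the controls, and the lowest of 8 HPI fell just short of the highest control. Its rise in log2 reached 0.39 by 8 HPI (adjusted p = 0.0021), 0.58 by 16 HPI (SE 0.071, adjusted p = 6.43e-06) and 0.63 by 24 HPI (95% interval 0.47 to 0.79, adjusted p = 8.19e-06). None of its read-length stretches occurs in another gene. The part of other cells in its rise was not tested. All 3 calls held whichever library was left out, and all 3 were lost with no replicate block, for Hspb8 to adjusted p of 0.575, 0.0744 and 0.0964.

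Bag3, the BAG partner of Hspb8, went the other way. It had 54.0, 39.6 and 44.3 CPM in control, 37.9, 35.3 and 39.4 CPM at 16 HPI and 37.1, 32.8 and 42.2 CPM at 24 HPI. The 16 HPI libraries were all below the controls, though by little, and those of 24 HPI overlapped them. Its log2 fold change was -0.28 at 16 HPI (adjusted p = 0.0268) and -0.29 at 24 HPI (adjusted p = 0.0301), both lost without control replicate 1 or 2. It also had the lowest value of any member at 1 HPI, -0.37, which was not called (adjusted p = 0.0756). Bag1, which releases clients of HSP70 to the proteasome, was higher at 24 HPI by 0.19 (adjusted p = 0.00653). Bag5 and Bag6 were not called.

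The heat shock factors and the genes they are best known to induce did not rise together. Hsf1, the main factor of the heat response, was not called at any time point, with log2 fold changes of -0.13 to 0.00. Hsf2, which acts in development and under proteasome stress, had 34.4, 32.9 and 31.2 CPM in control and 43.5, 40.4 and 37.7 CPM at 16 HPI, with all 3 libraries above the controls. Its log2 fold change of 0.30 was called (SE 0.065, adjusted p = 0.00172), and the level fell by 0.25 from 16 to 24 HPI (adjusted p = 0.0153), a step no longer called without 16 HPI replicate 1 or 24 HPI replicate 3.

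Among classical heat-induced genes, Hspa1b had 8.74, 4.79 and 4.48 CPM in control and 7.04, 6.40 and 3.83 CPM at 16 HPI. The groups overlap fully, and its 95% interval at 16 HPI ran from -0.40 to 0.26 on the log2 scale. Dnajb1, the J protein that pairs with it, was not called, and its interval at 16 HPI ran from -0.14 to 0.15. Hsph1, the inducible HSP110, was at -0.29 at 24 HPI (-0.59 to 0.00, adjusted p = 0.147). A 3-unit heat shock element stood in the window of 4 genes, Hspd1, Hspe1, Hsph1 and Dnajb6. Of these, edgeR's fit of all libraries called 0 at any time point, where 30.5% of all genes were called at 1 or more. With 4 genes, 0 does not stand apart from that share. At an unadjusted p under 0.05 stood Hspd1 (1, 3 and 8 HPI), Dnajb6 (16 and 24 HPI) and Hsph1 (24 HPI). So did 1768, 1999, 3026, 4623 and 3933 of the 13771 genes at 1, 3, 8, 16 and 24 HPI. The largest change of Hspd1 was 0.18 at 3 HPI (adjusted p = 0.111), where DESeq2 called it (adjusted p = 0.0355). That of Hspe1 was 0.14 at 16 HPI. Dnajb6 reached 0.16 at 24 HPI, where it was called with upper-quartile factors, as Hsph1 was there in the fit of the 2 groups alone.

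Of the 5 tested genes of cytosolic HSP70 2, Hspa8 and Hspa12a, were called lower at 16 HPI and at 24 HPI, where 11.5% and 9.03% of all genes were, and Hspa1b, Hspa2 and Hspa12b were not called. Hspa8 had 1347, 1377 and 1198 CPM in control, 1177, 1155 and 1024 CPM at 16 HPI and 1268, 1188 and 1063 CPM at 24 HPI. All 3 libraries of 16 HPI were below the controls. Its log2 fold change was -0.225 at 16 HPI (SE 0.049, adjusted p = 0.00204) and -0.16 at 24 HPI (adjusted p = 0.0353), the latter lost without any 1 of the control replicates, 1 HPI replicate 1 or 2, or 24 HPI replicate 2 or 3. Hspa12a, a distant brain-enriched relative named after its values were seen, had 564.7, 551.4 and 522.2 CPM in control and 499.8, 421.1 and 420.0 CPM at 24 HPI, all below the controls, for a change of -0.29 (SE 0.054, adjusted p = 8.97e-04). Hspa4 (APG-2), the HSP110 that recharges HSP70, was at -0.17 at 16 HPI (adjusted p = 0.0269), a call lost in 4 of 8 settings and without control replicate 1 or 2 or 16 HPI replicate 2. Of the 6 sensory neuron markers 1, Tubb3, was called at 16 HPI, where it fell by 0.40, while Prph was at -0.01, Pou4f1 at -0.015, Avil at -0.08 and Calca at -0.18. At 24 HPI 3 of the 6 were called, 2 lower, among them Tubb3 by -0.37, and 1 higher, Pou4f1 by 0.20. The 6 markers summed to 8796 to 9287 CPM over the control libraries. The sums were 7611 to 8400 CPM at 16 HPI and 8045 to 8290 CPM at 24 HPI. The part of neuron content in the changes of Hspa8, Hspa12a and Hspa4 was not tested.

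Hsp90aa1 and Hsp90ab1, the cytosolic HSP90s, were not called at any time point. Their log2 fold changes ran from 0.00 to 0.12 and from -0.07 to 0.01, and at 16 HPI the 95% intervals were -0.10 to 0.11 and -0.17 to 0.03. The 6 tested chaperonin subunits (Cct2, Cct3, Cct4, Cct5, Cct7, Cct8) lay between -0.10 and 0.12 at all time points, with none called against control. Cct7 alone was called over the time course (adjusted p = 0.0267). Cct6a, outside the symbol rule, lay between -0.01 and 0.09, and Tcp1, the remaining subunit, was called lower in the step from 8 to 16 HPI, by -0.13, and not against control.

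In the mitochondria, Hspa9 (mortalin), the HSP70 that pulls proteins through the import channel, was higher by 0.18 at 8 HPI (adjusted p = 0.0327) and 0.17 at 16 HPI (adjusted p = 0.0148). Its libraries overlapped control: 483.1, 569.7 and 588.6 CPM there and 585.2, 622.7 and 638.2 CPM at 16 HPI. The chaperonin pair of the matrix, Hspd1 (HSP60) and Hspe1 (HSP10), was not called by edgeR, while DESeq2 called Hspd1 higher at 3 HPI. Of the J proteins of this organelle, named after their values were seen, Dnaja3 was higher by 0.21 at 16 HPI (adjusted p = 0.0068) and Dnajc15 by 0.26 at 16 HPI and 0.25 at 24 HPI. Of the 9 mitochondrial genes tested 1 was called at 8 HPI and 3 at 16 HPI, all higher, beside 3.78% and 10.7% of all genes, and over the time course 1 was called (11.1% against 30% of all genes). The call of Hspa9 at 8 HPI was lost when any 1 of 6 libraries was left out, all 8 HPI libraries among them, that at 16 HPI without control replicate 1 or 16 HPI replicate 1, and those of Dnajc15 without control replicate 2, while that of Dnaja3 held throughout.

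The remaining J proteins gave scattered small calls. Dnajb2 (HSJ1), a neuronal J protein that feeds ubiquitinated clients to the proteasome, had 68.3, 67.1 and 62.4 CPM in control and 78.3, 76.1 and 78.7 CPM at 8 HPI, where all 3 libraries were above the controls (0.24, adjusted p = 0.0186). It had come down by -0.18 at 16 HPI, a step called in few of the alternatives. The call at 8 HPI was lost without control replicate 2 or 3 or 8 HPI replicate 1 or 3. Dnajc6 (auxilin), which strips clathrin from vesicles, was at -0.15 at 16 HPI (adjusted p = 0.016), and Dnajc13, an endosomal J protein, at -0.22 at 24 HPI. Both were lost without control replicate 2. Dnajc5 (CSPα), the J protein of synaptic vesicles, was not called. Among genes named after their values were seen, as Dnajc13 was, Dnajc2, a ribosome-bound J protein, rose by 0.26 at 8 HPI and 0.21 at 16 HPI, Dnajc12 by 0.485 at 24 HPI, and Dnajc9, a histone chaperone, by 0.39 at 24 HPI. The call of Dnajc12 held whichever library was left out, and those of Dnajc2 and Dnajc9 were lost without control replicate 2 or 3. The dividing-cell marker Top2a was also called higher at 24 HPI, while Mki67 was not called and Cdk1 was too low to test. The part of dividing cells in the rise of Dnajc9 was not tested. Dnaja1, Dnajb5 and Dnajb6 were not called.

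Other genes of protein folding, from a list of 58 outside the symbol rule of which 56 were tested, show where the ER members stand. Of the 22 genes of ER folding and the unfolded protein response 15 were called over the time course, 68.2% beside 30% of all genes. All 7 called at 8 HPI rose, 7 rose and 4 fell at 16 HPI, and 1 rose and 6 fell at 24 HPI. The shares of all genes that rose and fell were 3.78% and 3.9% at 8 HPI, 10.7% and 11.5% at 16 HPI, and 5.99% and 9.03% at 24 HPI. In the step from 16 to 24 HPI 9 of the 22 fell and 0 rose, where 6.22% of all genes fell and 3.59% rose. Of the 76 chaperone genes 5 fell and 4 rose in that step, and 2, Hspa5 and Dnajb9, were still called without 16 HPI replicate 1. From 8 to 16 HPI, where 7.30% of all genes were called higher and 7.88% lower, 2 of the 76 were higher (Dnajb9, Hspb1) and 6 lower. Leaving out 1 library brought the 8 calls down to 4 (16 HPI replicate 1 or 8 HPI replicate 3), 3 (8 HPI replicate 1) or 5 (16 HPI replicate 2). Counts with a library left out stand without the share of all genes called in the same fit. They do not single out chaperone genes.

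Ddit3 (CHOP), the transcription factor at the end of the Eif2ak3 branch, moved most. It had 39.6, 57.3 and 70.6 CPM in control, 91.2, 132.0 and 123.7 CPM at 8 HPI and 36.8, 71.8 and 68.7 CPM at 24 HPI. All libraries of 8 HPI were above all controls, and those of 24 HPI overlapped them. Its log2 fold change was 1.06 at 8 HPI (adjusted p = 3.37e-06) and 1.115 at 16 HPI (adjusted p = 5.06e-07), and it fell by 1.04 from 16 to 24 HPI. The sensors rose with it: Eif2ak3 (PERK) by 0.64 at 8 HPI (adjusted p = 1.60e-05), Atf6 by 0.46 at 16 HPI and Ern1 (IRE1) by 0.49 at 16 HPI, the last 2 named after their values were seen.

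Xbp1, the factor that Ern1 activates by splicing its RNA, rose by 0.39 at 8 HPI and 0.30 at 16 HPI. Gene counts do not separate its spliced form. Herpud1, which takes part in ER degradation, peaked at 8 HPI with 0.60 (adjusted p = 1.10e-05) and was below control at 24 HPI by -0.32. Atf4, translated when protein synthesis is damped, was 0.21 higher at 8 HPI and 0.30 lower (-0.30) at 24 HPI. Folding enzymes differed among themselves. Hyou1, the HSP110 of the ER, was lower at 16 and 24 HPI by -0.16 and -0.23, Pdia4 and Pdia6 were lower at both by -0.16 to -0.22, and of the oxidases Ero1l was higher by 0.32 at 8 HPI and Ero1lb by 0.32 at 16 HPI. The last 4 were named after their values were seen, and the calls of Hyou1, Pdia4, Pdia6, Ero1l and Ero1lb at 16 HPI were lost without control replicate 1 or 16 HPI replicate 1, as that of Atf4 at 8 HPI was without control replicate 1.

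**Figure D4:**
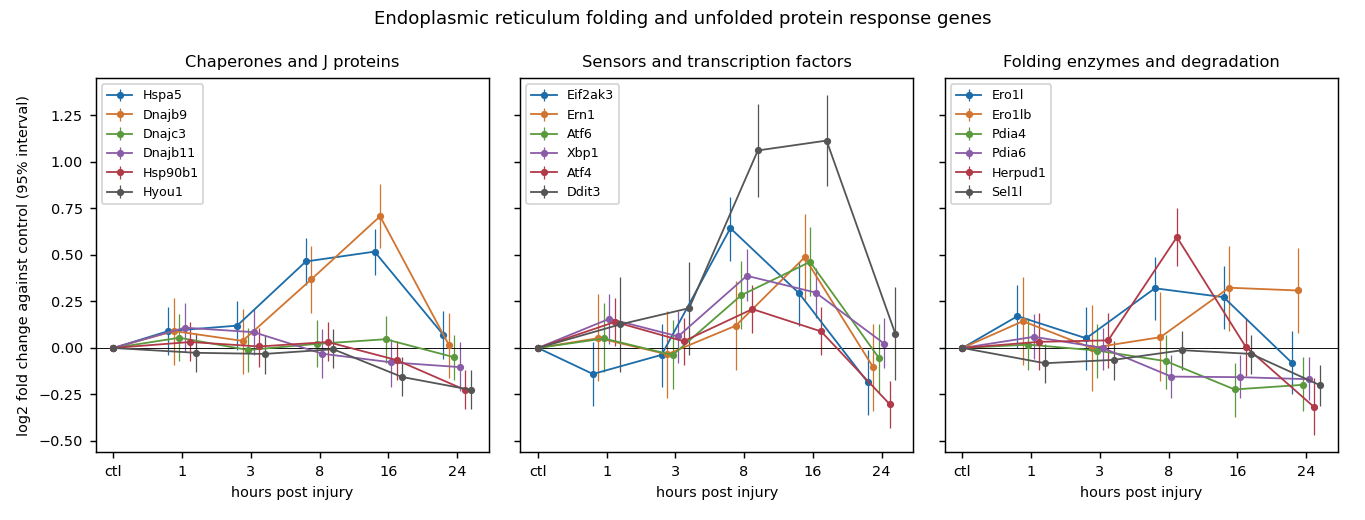
Log2 fold change against control (points, with 95% intervals) of 18 genes of ER folding and the unfolded protein response at 1 to 24 HPI (x axis), in 3 panels by role, with control set at 0. Hspa5, Dnajb9, Ddit3 and the sensors rise at 8 to 16 HPI and are near or below 0 at 24 HPI, while Hyou1, Hsp90b1, Pdia4 and Pdia6 are below 0 at 16 and 24 HPI.

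In the other lists the shares called over the time course stood beside the same 30% of all genes. Of the 16 HSP70 and HSP90 co-chaperones 6 were called (37.5%), among them Stip1 (HOP), which bridges HSP70 and HSP90 and had 187.0, 178.9 and 177.2 CPM in control and 153.7, 157.9 and 147.5 CPM at 16 HPI. Its 3 libraries of 16 HPI were below all controls, with a change of -0.24 (adjusted p = 3.00e-04). It was lower at 24 HPI too, by -0.18. Of the 10 genes of mitochondrial import and proteolysis 1 was called over the time course (10%), Afg3l2. Of the 8 of prefoldin and Tcp1 edgeR called 0 over the time course. At an unadjusted p under 0.05 there were 4, beside 5817 of the 13771 genes. At 24 HPI 2 of the 8 rose, where 5.99% of all genes did.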

How the data were processed

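RNA-seq libraries were made from eDRG spot cultures, 3 in each of 6 groups. Per the labels, RNA was depleted of rRNA and made into cDNA with a SMARTer kit. The deposited values are raw counts per gene, which the authors made by aligning reads to mm10 with STAR. The submitters' processing notes name HTSeq, while the study's methods name featureCounts and GENCODE vM20. Whether counting used strand is not given in the sources used here, so reads of overlapping antisense genes cannot be told apart. Reads with several alignments (14.7% to 19.8%) and 5 entries that name no gene were left out of library sizes.

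Identifiers were matched to GENCODE vM21 (GRCm38), 47224 of 47643, of which 39106 had the same version, and 419 had no match. The 13771 genes that exceeded 1 CPM in 3 or more libraries were normalized by TMM and fitted in R 4.3.3 with edgeR 4.0.16 (glmQLFit, glmQLFTest) in 1 model of all 18 libraries with terms for group and replicate number. Tests were two-sided with Benjamini-Hochberg adjustment over all genes tested, and an adjusted p under 0.05 made a call, at any fold change. "Higher", "rose", "lower" and "fell" refer to called changes. CPM are TMM-scaled, RPKM are those per kilobase of exon, and differences within a replicate number used a prior count of 2. Intervals are nominally 95% and run somewhat wider than the tests beside them imply. Figures were made in Python 3.11.15 with matplotlib 3.10.9.

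The labels give the same replicate numbers in each group, and the study corrected its counts for batch. Deviations from group means correlated at 0.619 on average (0.484 to 0.765) over 45 pairs of libraries with the same number, so the number was fitted as a block. Over 90 pairs with another number the average was -0.308. That value follows largely from the first, because the deviations within a group cancel out. No pair of libraries held identical counts. Nothing says that replicates were separate dissections. The p-values measure the spread between these cultures that remains once differences between replicate numbers are taken out by the block. The script for the fit was tested on simulated counts. DESeq2 1.42.0, 2 other normalizations, 2 other filters, a fit with no replicate block, one without mitochondrial and residual rRNA genes, one restricted to the 2 groups compared and 18 fits that each left out a library were the alternatives, 26 per comparison.

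Hspa14 was not analysed here. A culture supplement and 1 marker gene are not reported here. Promoter windows were those of RefSeq on GRCm38.p6, matched by symbol for 73 members (93 windows). Read-length stretches of each member's transcripts were looked up in those of all other genes.

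Members and gene lists were chosen with earlier results of these data known. Genes were named if called with a log2 fold change over 0.5 and the same sign in 3 replicate numbers (at most the 12 largest per time point), or if on a fixed list of main chaperones. Of the other protein-folding genes, the 3 largest called in each direction and a fixed few were named. Others are said to have been named after their values were seen.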

Additional observations from a re-analysis of the deposited data

Results flagged for a closer look

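Levels of some chaperone genes differed between neighbouring injured time points by edgeR's test of the difference itself. From 8 to 16 HPI the log2 change was 0.34 for Dnajb9 and 0.82 for Hspb1, and it was -0.22 for Bag4, -0.18 for Dnajb14, -0.18 for Dnajb2, -0.17 for Dnajc10, -0.19 for Hspa12a and -0.21 for Hspa4. From 16 to 24 HPI it was -0.69 for Dnajb9, -0.45 for Hspa5, -0.25 for Dnajb12, -0.25 for Hsf2 and -0.16 for Hsp90b1, and 0.51 for Hspb1, 0.41 for Dnajc12, 0.20 for Dnajc10 and 0.16 for Dnajb14. Hspb1 differed in the same direction in both steps, Dnajb9 in opposite directions. The steps of Hspb1 rested on few counts and were both lost without 16 HPI replicate 1. Of the 17 steps, those of Hspa5 and Dnajb9 from 16 to 24 HPI held in every alternative. Groups of 3 libraries were too small for a check of single outlying libraries.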

How the results depend on the processing

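No called change of a gene reversed under any of the 26 alternatives. The counts of calls depended most on the replicate block. With no replicate block, 1 chaperone gene was called at 8 HPI, 2 at 16 HPI, 0 at 24 HPI, 0 from 8 to 16 HPI, 2 from 16 to 24 HPI and 2 over the time course, and 4 pathway genes in place of 22. Those that remained were Hspa5 and Dnajb9. DESeq2 called 1 at 1 HPI and 2 at 3 HPI, the fit of the 2 compared groups alone called 3 at 1 HPI, and with a filter of at least 10 counts 5 were called from 8 to 16 HPI. The median log2 fold change of the members moved to 0.05 at 1 HPI, 0.024 at 16 HPI and 0.04 at 24 HPI with upper-quartile factors, to 0.048 at 1 HPI and 0.045 at 24 HPI with the filter of 10 counts, and at 24 HPI to 0.016 without mitochondrial and residual rRNA genes and to 0.005 with 2 groups alone. Leaving out 1 library at a time, the calls ranged from 0 to 1 at 1 HPI, 0 to 1 at 3 HPI, 2 to 6 at 8 HPI, 11 to 18 at 16 HPI, 6 to 12 at 24 HPI, 3 to 8 from 8 to 16 HPI, 2 to 9 from 16 to 24 HPI and 15 to 22 over the time course, and the median from 0.029 to 0.043 at 1 HPI from -0.014 to 0.019 at 16 HPI and from -0.008 to 0.018 at 24 HPI, where it was below 0 without replicate 1 or 3 of that group. The libraries that decided counts were control replicate 2 (3 calls at 8 HPI, 11 at 16 HPI and 6 at 24 HPI without it), 8 HPI replicate 3 (2 at 8 HPI, 4 from 8 to 16 HPI), 8 HPI replicate 1 (3 at 8 HPI, 3 from 8 to 16 HPI), 24 HPI replicate 3 (7 at 24 HPI, 3 from 16 to 24 HPI), 16 HPI replicate 1 (4 from 8 to 16 HPI, 2 from 16 to 24 HPI) and 16 HPI replicate 2 (5 from 8 to 16 HPI). These counts are not set beside the share of all genes called in each fit, so a loss particular to chaperone genes is not shown. The cause was not tested.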
